A study of Homo sapiens with 3 samples.

Results

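Olfactory receptor (OR) genes, which are best known from the nose, were examined as targets in a leukaemia cell line. The set was taken by name: every sgRNA whose target symbol is OR, a family number, a subfamily letter or letters and a member number, with or without a final P for pseudogene. This gave 3676 sgRNAs against 393 genes, out of 200682 sgRNAs against 20381 genes seen in any library. No read count entered the choice. They were set against 6645 safe-targeting sgRNAs, which cut the genome at places without annotated function, 4639 non-targeting sgRNAs, which have no binding site in the genome, and 185722 sgRNAs against 19988 other genes.

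OR proteins are G protein-coupled receptors that sit on the cilia of olfactory sensory neurons and bind odorants. Each neuron settles on a single OR allele, and the remaining OR genes are held silent in heterochromatin. The genes lie in tandem clusters that grew by local duplication, so that many have close copies beside them or on other chromosomes. Their expression in K562 was not measured in these libraries.

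The cells were K562, an established human leukaemia line, expressing Cas9. They were infected with the genome-wide Bassik CRISPR knockout library, designed with 10 sgRNAs per gene, at 0.3 viruses per cell (multiplicity of infection), and selected in puromycin at 1 μg/mL for 72 h from 48 h after transduction. The HLA-B high sorted library came from cells that received 1 ng/mL IFN-γ, the cytokine that induces MHC-I, for 24 h and were then sorted for high HLA-B in 2 rounds, at days 18 and 25. The high-screen control (high-screen pool) was the unsorted population of that screen. The low-screen control (low-screen pool) was the unsorted population of the screen for low MHC-I, in which IFN-γ was used at 25 ng/mL and the sorts fell on days 7 and 15. The labels do not give the day on which either unsorted pool was harvested, and the treatment is described for all samples together. With 1 library per group, the spread between replicates is unknown for every difference given. All intervals are 95% intervals over sgRNAs (exact Clopper-Pearson for shares, order statistics for medians). They reflect only the number and spread of sgRNAs within these libraries, with sgRNAs of the same gene taken as independent. Reads were PCR products without molecular identifiers.

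Matched reads numbered 34266318 after the sort, and the pools of the high and low screens held 22562241 and 98426251. OR sgRNAs made up 1.83% of all sgRNAs seen. They took 1.43% of the matched reads after the sort (489560 reads), 1.52% of those of the high-screen pool (341826 reads) and 1.497% of those of the low-screen pool (1473597 reads). Their share of reads was thus below their share of sgRNAs in all 3 libraries.

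Many OR genes are near copies of another. Of 385 OR genes with a protein to compare, 63 (16.4%) had another human OR at 90% identity or more, and 16 had one at 98% or more. The median identity to the closest relative was 69.4%. The proteins of OR2A1 and OR2A42 were 100% identical. At the DNA level, 46801 sites of 20 bases followed by NGG, the motif that Cas9 requires, were found in 392 OR genes in GRCh37. The position that Cas9 would cut lay in the coding sequence, or in an exon where a gene had none annotated. In the median gene 7.19% of these sites had a further exact copy next to an NGG elsewhere in the genome. The spacer sequences of the library were not used here, so these are all possible sites of a gene and not the sgRNAs used.

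The following 6 sites are shown because each belongs to a pair of OR genes seen with very few sgRNAs, or to 1 such gene and its closest relative. Each is the first NGG site kept in the coding sequence that the first gene shares, in all 23 bases, with the second. Some sites with a further copy elsewhere in the genome were left out before this choice, so an earlier shared site may exist. They are written 5′ to 3′ from GRCh37, with the NGG in capitals.
OR11H1 and OR11H12: aatgtgtcccttgaccttgcAGG
OR2A1 and OR2A42: tctttttcacagggaaatggGGG
OR2A4 and OR2A7: ctcctactgggatttcccgtTGG
OR2T2 and OR2T35: cttgtcatggaccatgggcaTGG
OR2T29 and OR2T5: acctcatggccaacatcaccAGG
OR4F17 and OR4F5: gtctcttccagttatgaagaAGG
In all 6 the position that Cas9 would cut lies in the coding sequence of both genes. The copy in OR11H12 begins just before the annotated start of that gene. The OR11H1 site is at chr22:16449783-16449805 on the minus strand and its copy in OR11H12 at chr14:19377593-19377615 on the plus strand, and the genome holds 3 copies in all. The others have 2 copies each. The OR2A1 site is at chr7:144015202-144015224 (plus) and in OR2A42 at chr7:143929930-143929952 (minus). The OR2A4 site is at chr6:132022486-132022508 (minus) and in OR2A7 at chr7:143956666-143956688 (minus), so that the pair spans different chromosomes. The OR2T2 site is at chr1:248616086-248616108 (plus) and in OR2T35 at chr1:248802550-248802572 (minus). The OR2T29 site is at chr1:248722775-248722797 (minus) and in OR2T5 at chr1:248651885-248651907 (plus). The OR4F17 site is at chr19:107136-107158 (plus) and in OR4F5 at chr1:65552-65574 (plus). OR2A1 shared 164 such sites with OR2A42, OR2T2 shared 139 with OR2T35 and OR2T29 shared 137 with OR2T5. OR2A4 shared 134 with OR2A7 and OR4F17 shared 87 with OR4F5. The sites left out are not in these counts, so each count is a lower bound.

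The number of sgRNAs seen per gene followed these relationships. Of the 393 OR genes, 251 (63.9%, 58.9 to 68.6) were seen with 10 sgRNAs, against 72.0% (71.4 to 72.6) of the other genes. A further 98 OR genes were seen with 9, 24 with 8 and 7 with 7. The remaining 13 OR genes were seen with 5 or fewer, which is 3.31% (1.77 to 5.59) of OR genes against 5.39% (5.08 to 5.71) of other genes. These were OR2A1, OR2A4, OR2A7, OR2A42, OR2T2, OR2T5, OR2T29, OR2T35, OR4F4, OR4F17, OR4F21, OR11H1 and OR11H12. All 13 had a relative at 98.2% identity or more, and between 92.7% and 100% of the NGG sites of each were copied elsewhere. No OR gene whose closest relative was under 98% fell to 5 sgRNAs. The 3 other genes above 98% were OR4F5, seen with 7 sgRNAs, OR2T3 with 9 and OR2T34 with 10. An sgRNA without a read in any library cannot be told apart from an sgRNA that the library design left out.

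The 43 sgRNAs of these 13 genes also had few reads. Their median was 7 reads in the high-screen pool and 5 in the low-screen pool. OR4F17 was represented by a single sgRNA with 0 sorted reads, 4 in the high-screen pool and 0 in the low-screen pool. OR11H1 had 3 sgRNAs, with 4, 1 and 2 reads in the high-screen pool and 1, 0 and 0 in the low-screen pool. OR2T2 had 5, with 6, 13, 7, 6 and 0 reads in the high-screen pool and 3, 1, 5, 311 and 163 in the low-screen pool. Within OR2T2, 2 sgRNAs were thus well represented in the deeper pool and 3 were nearly absent from both pools. OR2A42 had the most reads of the 13 genes in each pool: its 4 sgRNAs had 5, 96, 245 and 38 reads in the high-screen pool and 51, 381, 511 and 192 in the low-screen pool. In the sorted library these 4 had 59, 49, 382 and 1214 reads, and the last was the highest sorted count among the 43 sgRNAs. The study removed reads that aligned to more than 1 sgRNA. How far that step or the library design lowered these counts was not tested.

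Across the whole family, OR sgRNAs were less abundant than either control class in both unsorted pools. In the high-screen control the median OR sgRNA had 66 reads (63 to 70), against 87 (85 to 90) for safe-targeting, 154 (148 to 157) for non-targeting and 86 (85 to 86) for other gene-targeting sgRNAs. In the low-screen control the medians were 312 (297 to 324), 413 (402 to 425), 627 (605 to 645) and 388 (386 to 390). The order of OR below safe-targeting below non-targeting was the same in both pools. The quartiles of OR sgRNAs were 24 and 133 reads in the high-screen control, and the highest had 1086.

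OR sgRNAs also had a larger tail of poorly represented members. In the high-screen control 512 OR sgRNAs (13.9%, 12.8 to 15.1) had fewer than 10 reads, against 5.84% (5.29 to 6.43) of safe-targeting, 6.77% (6.06 to 7.53) of non-targeting and 7.88% (7.76 to 8.01) of other gene-targeting sgRNAs. In the low-screen control the OR share was 14.4% (13.3 to 15.6), from 531 sgRNAs, against 5.79% (5.24 to 6.38) for safe-targeting. OR sgRNAs were therefore over-represented among the poorly covered in each pool on its own. The Gini index, which is 0 when all counts are equal, was 0.510 for OR sgRNAs and 0.432 for safe-targeting sgRNAs in the high-screen control. It was 0.461 for other gene-targeting sgRNAs there.

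This tail grew with the identity of the closest relative. OR genes were put in 4 identity groups: below 60% (129 genes), 60 to 80% (141), 80 to 90% (52) and 90% or more (63). The share of sgRNAs with fewer than 10 reads in the high-screen control was 8.91% (7.39 to 10.6), 12.3% (10.6 to 14.2), 16.0% (12.9 to 19.5) and 28.7% (24.7 to 32.8) in that order. Among the 16 genes at 98% or more it was 49.3% (37.0 to 61.6). Median reads in the high-screen control were 77, 65, 67.5 and 38 over the 4 groups, and 10 at 98% or more. Only the lowest identity group had a share whose interval took in the 7.88% of other genes, and even that interval lay above the 5.84% of safe-targeting sgRNAs.

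Grouping by copied NGG sites in place of protein identity gave the same order. The share with fewer than 10 reads was 9.66% (8.43 to 11) for the 218 genes with under 10% of their sites copied, 16.3% (13.7 to 19.3) for 72 genes with 10 to 40%, 19.7% (16.9 to 22.8) for 80 genes with 40 to 80% and 39.3% (30.4 to 48.8) for 22 genes with 80% or more. Several pairs just below 98% identity belonged to the same tail. OR8B2 and OR8B3, at 97.8% identity, had medians of 2 and 3 reads per sgRNA in the high-screen control. OR52I1 and OR52I2, at 95.1%, had medians of 14 and 4, and OR13C2 and OR13C5, at 92.8%, had 6 and 9.5.

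Close relatives did not always go with low counts. OR2T12, at 95.3% identity to OR2T33, had a median of 165 reads per sgRNA in the high-screen control, OR10G4, at 94.2% to OR10G9, had 166.5, and OR2F1 and OR2F2, at 90.2% to each other, had 145.5 and 148. These 4 genes were in the top 5% of OR genes by this measure. Each was seen with 10 sgRNAs.

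The sort removed most OR sgRNAs from view. In the HLA-B high sorted library 1585 OR sgRNAs (43.1%, 41.5 to 44.7) had at least 1 read, against 50.4% (49.2 to 51.6) of safe-targeting, 63.7% (62.3 to 65.1) of non-targeting and 49.3% (49.1 to 49.6) of other gene-targeting sgRNAs. In the unsorted pools the OR share was 96.5% (95.8 to 97.0) and 90.5% (89.5 to 91.4), against 97.9% and 94.6% of safe-targeting sgRNAs. The most frequent pattern for an OR sgRNA was presence in both pools and absence after the sort (1716 sgRNAs, 46.7%), followed by presence in all 3 libraries (1486, 40.4%). A further 265 were seen in the high-screen control alone, 110 in the low-screen control alone, and 6 in the sorted library alone. An sgRNA with no reads in the sorted library could have stood at up to 0.0876 CPM there (counts scaled to the matched total), the level of 3 reads.

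Part of the lower detection went with the lower starting counts. Among sgRNAs that started from 10 or more high-screen reads, 46.6% of OR sgRNAs were detected after the sort, against 52.4% of safe-targeting sgRNAs. Weighted to the spread of starting reads of safe-targeting sgRNAs, the OR share became 48.0%, against 53.9% for non-targeting and 50.9% for other gene-targeting sgRNAs. By starting reads, OR and safe-targeting shares were 27.5% (23.8 to 31.4) and 32.03% (28.8 to 35.4) at 10 to 29 reads, and 35.8% (32.1 to 39.6) and 37.9% (35.1 to 40.8) at 30 to 59 reads. At 60 to 119 reads they were 42.9% (39.7 to 46.2) and 51.5% (49.3 to 53.7), which were the only intervals that did not overlap. At 120 to 239 reads they were 61.2% (57.7 to 64.6) and 63.5% (61.3 to 65.7), and at 240 to 479 reads 79.0% (73.6 to 83.8) and 79.9% (75.9 to 83.5). Detection rose with starting reads in both classes.

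Against the high-screen control, the question was whether loss of a gene raised or lowered HLA-B, with OR genes as a reference. The log2 ratio of reads, scaled to each library's matched total and computed for sgRNAs with at least 10 control reads and with 1 read added to each count, had a median of -5.01 (-5.13 to -4.85) over 3164 OR sgRNAs. It was -4.69 (-4.91 to -4.51) over 6257 safe-targeting sgRNAs, -2.21 (-2.39 to -1.99) over 4325 non-targeting and -4.85 (-4.88 to -4.85) over other gene-targeting sgRNAs. The OR median was below the safe-targeting median by a difference of -0.32 (-0.56 to -0.08), which depended on the read minimum: it was -1.71 (-2.82 to -0.60) with at least 50 reads and 0 (-0.29 to 0.29) with no minimum. The median of non-targeting sgRNAs was higher than both by more than the intervals. These medians depend on the read added to each count, because 53.4% of these OR sgRNAs (1688) had no sorted reads. With those sgRNAs held at the bound that 3 reads give, the medians were -3.72 for OR, -3.54 for safe-targeting and -2.21 for non-targeting sgRNAs. Among sgRNAs that were detected after the sort, the medians were -0.52 (-0.74 to -0.38), -0.73 (-0.84 to -0.60) and -0.46 (-0.55 to -0.35).

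The share of OR sgRNAs that expanded in the sort was close to that of the safe-targeting class. A log2 ratio above 1 was found for 374 OR sgRNAs (11.8%, 10.7 to 13.0), 11.7% (10.9 to 12.5) of safe-targeting and 15.8% (14.7 to 16.9) of non-targeting sgRNAs, beside 12.6% of all sgRNAs. A ratio below -1 was found for 2338 OR sgRNAs (73.9%, 72.3 to 75.4), 71.6% (70.5 to 72.7) of safe-targeting and 60.4% (58.9 to 61.8) of non-targeting sgRNAs, beside 70.7% of all sgRNAs. Weighted to the starting reads of safe-targeting sgRNAs, the share above 1 was 11.8% for OR, 11.7% for safe-targeting and 15.9% for non-targeting sgRNAs.

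Against the low-screen control the picture was similar, although both comparisons share the sorted library. The OR median was -5.06 (-5.40 to -4.87) over 3145 sgRNAs, against -4.80 (-4.94 to -4.71) for safe-targeting and -2.10 (-2.31 to -1.89) for non-targeting sgRNAs. With sgRNAs without sorted reads at their bound these became -3.93, -3.88 and -2.09. Of the OR sgRNAs, 393 (12.5%, 11.4 to 13.7) lay above 1, beside 13.3% of all sgRNAs, and 2342 (74.5%, 72.9 to 76.0) lay below -1, beside 71.1% of all sgRNAs. Safe-targeting sgRNAs gave 12.2% (11.4 to 13.0) and 72.8% (71.6 to 73.9).

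Between the unsorted pools, OR sgRNAs centred on no change but spread more widely than the controls. The median log2 ratio of the high-screen over the low-screen control was 0.02 (-0.04 to 0.07) over 3437 OR sgRNAs, -0.14 (-0.18 to -0.10) over safe-targeting and 0.13 (0.09 to 0.16) over non-targeting sgRNAs. The interquartile range was 1.92 for OR, 1.71 for safe-targeting and 1.36 for non-targeting sgRNAs. A ratio above 1 was seen for 856 OR sgRNAs (24.9%, 23.5 to 26.4) and 19.1% (18.2 to 20.1) of safe-targeting sgRNAs, beside 22.6% of all sgRNAs. A ratio below -1 was seen for 810 OR sgRNAs (23.6%, 22.2 to 25.0) and 24.8% (23.7 to 25.8) of safe-targeting sgRNAs, beside 23.1% of all sgRNAs. The OR share above 1 was 31.9% (124 of 389) in genes with a relative at 90% identity or more and 24.2% (292 of 1205) in genes below 60%. The minimum of 10 reads could be met in either pool and was not scaled to depth. An sgRNA that met it only in the shallower high-screen pool always had a ratio above 1. With a minimum of 50 reads the shares over all OR sgRNAs were 19.8% above 1 and 25.2% below -1. The identity groups were not recomputed at that minimum. Across 2872 OR sgRNAs with at least 10 reads in both pools, Spearman's rho of the counts was 0.517, against 0.469 for safe-targeting and 0.628 for non-targeting sgRNAs. These are correlations over sgRNAs of 2 libraries, and the classes differ in their read depth.

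Genes were then ranked by redundant siRNA activity (RSA), the ranking method of the study. It orders all sgRNAs past the read minimum by ratio. Here safe-targeting and non-targeting sgRNAs also took up ranks, though only genes were scored. At each rank held by a gene it asks how unlikely so many of the gene's sgRNAs would be (hypergeometric, one-sided), and keeps the smallest p. A call here needed p under 0.001 with at least 4 sgRNAs at or beyond that rank. The p measures how far the sgRNAs of a gene move together within these libraries, and it is not a test between conditions.

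OR10AC1P, an OR locus on chr7:143206349-143216562 whose symbol marks it as a pseudogene although GENCODE lists it as protein coding, was the only OR gene of 389 called enriched in the sort over the high-screen control (0.257%). The background was 0.31% of all 20314 genes. Its 10 sgRNAs had 1400, 555, 0, 4, 980, 375, 129, 660, 523 and 216 sorted reads, against 68, 72, 97, 239, 547, 172, 125, 237, 311 and 110 in the high-screen control. Only the first 2 exceeded a log2 ratio of 1, at 3.74 and 2.33, while 5 others lay between 0.15 and 0.87. Its RSA p was 0.000766 over 7 sgRNAs, and the smallest adjusted p of any OR gene for enrichment was 0.173. With a minimum of 50 control reads OR10AC1P was not called and OR6V1 was. The call was not made against the low-screen control, where no OR gene of 388 was called enriched and the background was 0.365%. At RSA p under 0.05, 46 OR genes (11.9%) were enriched in that comparison, beside 13.98% of all genes.

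Depletion calls among OR genes were as few. No OR gene was called depleted against the high-screen control, beside 0.409% of all genes. At RSA p under 0.05, 82 OR genes (21.1%, 17.1 to 25.5) were depleted, beside 22.7% of all genes. Against the low-screen control 2 OR genes of 388 were called (0.515%), beside 0.552% of all genes. OR4L1, on chr14:20528204-20529142, had 217, 1045, 189, 584, 292, 347, 462, 480, 144 and 87 reads in the low-screen control. In the sorted library 9 of its 10 sgRNAs had none and the other had 1. OR9Q2, on chr11:57956542-57961525, had no sorted reads for 7 of the 9 sgRNAs seen, 2 reads for another and 231 for its sgRNA number 3. The RSA p was 0.000835 for OR4L1 and 0.000801 for OR9Q2, and the adjusted p was 0.114 for each. Neither was called with a pseudocount of 5.

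Between the unsorted pools 3 OR genes of 389 were called higher in the high-screen control (0.771%), beside 0.826% of all genes, and 3 were called lower (0.771%), beside 0.762%. The higher genes were OR2T34, OR2T4 and OR2W1, none of which was called with a minimum of 50 reads. OR2T34, at 98.1% identity to OR2T3 and with 87.0% of its NGG sites copied, had 5, 17, 21, 2, 3, 10, 37, 158, 13 and 62 reads in the high-screen pool and 1, 0, 19, 0, 2, 3, 0, 702, 5 and 853 in the low-screen pool. The call came from 5 sgRNAs with at most 37 reads in either pool, while the 2 sgRNAs with most reads had ratios of -0.02 and -1.64. Its adjusted p, 0.0498, was the smallest among OR genes in any of the 6 rankings. OR2W1, one of the OR genes beside the MHC, had 22, 53, 21 and 16 reads in the high-screen control for 4 sgRNAs with none in the low-screen control. The 5 sgRNAs behind the call of OR2T4 had 10, 11, 135, 213 and 18 reads against 8, 7, 48, 81 and 3, so that 3 of them had few reads in either pool.

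The lower genes were OR6N1, OR7C1 and OR8S1, with median log2 ratios of -0.97, -1.20 and -1.44. OR6N1 was not called with a pseudocount of 5, nor OR8S1 with a minimum of 50 reads. OR8S1 is annotated as a transcribed processed pseudogene. OR7C1 had 4, 54, 74, 66, 41, 19, 118, 3, 39 and 0 reads in the high-screen control against 216, 286, 458, 314, 367, 227, 626, 337, 687 and 72 in the low-screen control. All 10 ratios of OR7C1 lay at or beyond the rank that gave its p. OR7C2, its closest relative at 77.8% identity and on the same chromosome, moved in the opposite direction (median 1.78 over 9 sgRNAs). This was one of the 5 highest medians among OR genes with at least 5 sgRNAs past the read minimum.

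No OR gene with at least 5 sgRNAs past the read minimum had a median above 1 in the sort. Among 373 such OR genes, medians against the high-screen control ran from -7.64 (OR2A2) to 0.85 (OR13C5). Of 18893 other genes, 57 (0.302%) exceeded 1, and the range was -8.15 to 5.33. The next lowest OR genes were OR10D3 (-7.59), OR1N2 (-7.47), OR56A1 (-7.34) and OR10W1 (-7.33), and the next highest were OR10Q1 (0.71), OR10K2 (0.51), OR2T10 (0.50) and OR6V1 (0.48). Where the median sgRNA of a gene had no sorted reads, its ratio was set by its control reads. The order of the lowest medians therefore depends on starting reads and does not rank loss in the sort. Each of these 10 genes held sgRNAs with ratios above and below 0. The highest ratio was 0.87 in OR2A2 and 3.39 in OR10D3, and the lowest in OR6V1 was -7.90. The median of OR13C5 rested on 5 sgRNAs, because its other 5 fell below the read minimum.

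Against the low-screen control the lowest OR medians were those of OR5I1 (-7.55), OR5M1 (-7.44), OR4Q2 (-7.34), OR2B11 (-7.31) and OR1J2 (-7.24), and the highest those of OR6B1 (0.98), OR6K3 (0.98), OR11A1 (0.59), OR5M9 (0.56) and OR6V1 (0.30). The lowest medians again depend on starting reads where the median sgRNA had no sorted reads. No OR gene exceeded 1 there either. OR6V1 was among the 5 highest in both comparisons, which share its sorted counts. Between the pools, 378 OR genes had at least 5 sgRNAs past the read minimum. Of these, OR2T34 (3.35), OR4F5 (2.51), OR5H1 (1.86), OR7C2 (1.78) and OR5AL1 (1.73) were highest. The first 3 have relatives at 98.1%, 99.1% and 94.6% identity. The read minimum could be met in the high-screen pool alone, which placed an sgRNA above 1 whatever its target. The part of this in these medians was not tested. The lowest were OR8S1 (-1.44), OR6C70 (-1.41), OR2T27 (-1.40), OR5I1 (-1.34) and OR4A47 (-1.23).

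Which gene an OR sgRNA targeted accounted for almost none of the spread in its sorted ratio. The share of variance between genes was estimated at -0.04% against the high-screen control and -0.42% against the low-screen control, that is, not above 0. For other genes it was 1.24% and 1.31%. By contrast 6.16% of the variance of log2 reads in the high-screen pool and 6.74% in the low-screen pool lay between OR genes. Other genes gave similar shares of 6.60% and 6.07%. The standard deviation of the sorted ratio within OR genes was 3.46, close to the 3.54 within other genes.

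Sorted OR reads came from few sgRNAs. The 10 sgRNAs with most reads held 12.6% of all sorted OR reads, the top 36 held 26.7% and the top 10% held 78.9%. The Gini index of sorted counts was 0.880 for OR, 0.848 for safe-targeting, 0.803 for non-targeting and 0.860 for other gene-targeting sgRNAs. The top 1% of other gene-targeting sgRNAs held 26.1% of the sorted reads of that class, so the concentration was not particular to OR sgRNAs. The highest was sgRNA 8 of OR6F1, with 10543 sorted reads against 178 in the high-screen pool and 739 in the low-screen pool, a log2 ratio of 5.28 over the former. It held 88.5% of the sorted reads of OR6F1. Of the other 9 sgRNAs of that gene, 7 had no sorted reads, and the remaining 2 had 825 and 542. The next was sgRNA 6 of OR2S2, with 8993 sorted reads against 164 and 162. Then followed sgRNA 10 of OR6V1 (8100), sgRNA 2 of OR13G1 (6487), sgRNA 2 of OR4B1 (5303), sgRNA 2 of OR12D3 (5131) and sgRNA 8 of OR6Y1 (5103). The list ended with sgRNA 2 of OR51A7 (4285), sgRNA 5 of OR4N4 (3811) and sgRNA 2 of OR4C5 (3798). Each of these 10 genes had at least 3 sgRNAs with no sorted reads and at most 3 with a ratio above 1 over the high-screen control. Of all OR sgRNAs, 43.1% had sorted reads. The gene median was below 0 in all of them but OR6V1. In OR6Y1 a second sgRNA, number 4, had 2830 sorted reads and a log2 ratio of 2.55, and OR2S2 had 3 sgRNAs above 1.

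The 16 measured OR genes beside the MHC on chromosome 6 (the extended class I region, telomeric to the classical class I region that carries HLA-B) gave values in the sort near those of the family. Of their 148 sgRNAs 39.9% (31.9 to 48.2) were detected after the sort, against 43.1% of all OR sgRNAs. The median ratio over the high-screen control was -5.30 (-5.93 to -4.00) and 13.2% of sgRNAs lay above 1, against 11.8% of all OR sgRNAs. Gene medians ran from -6.65 (OR2H2) to -0.67 (OR11A1), and none was called in the sort. OR12D3 and OR2B3 of this group each had 1 sgRNA with many sorted reads: sgRNA 2 of OR2B3 had 3665 against 17 in the high-screen control. Between the unsorted pools 3 of the 16 genes had medians above 1, and OR2W1 was called. Of genes with at least 5 sgRNAs past the read minimum, 19 of 378 OR genes (5.03%) and 3.88% of other genes had medians above 1 there.

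The 13 measured OR genes that flank the β-globin cluster on chromosome 11, a locus active in erythroid cells, also lay near the family as a whole. Of 126 sgRNAs 40.5% (31.8 to 49.6) were detected after the sort, the median ratio over the high-screen control was -5.41 (-6.03 to -4.41) and 9.91% lay above 1. Gene medians ran from -6.59 (OR52A5) to -2.02 (OR52A1), and none was called in any ranking.

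A further 6 genes had been listed because they have been described outside the nose or in K562: OR2AT4, OR51B5, OR51E1, OR51E2, OR1D2 and OR2W3. Of their 59 sgRNAs 50.8% (37.5 to 64.1) were detected after the sort and 18.5% lay above 1 over the high-screen control (10 of 54), against 11.8% of all OR sgRNAs. Their median starting reads in the high-screen control were 97, against 66 for all OR sgRNAs, and the part of this difference was not tested. None was called by RSA, in either direction and any comparison. OR51B5 and OR2AT4, both described as active in K562 cells, had median ratios of -5.90 and -6.77 over the high-screen control. These medians also depend on starting reads, because several sgRNAs of each gene had no sorted reads. OR51B5 had 0, 7, 2, 1346, 0, 466, 0, 0, 0 and 1 sorted reads for its 10 sgRNAs. OR2AT4 had 0, 0, 144, 1, 0, 1817, 1, 0, 1 and 25. OR2W3 was the highest of the 6, with a median of -0.80, an RSA p for enrichment of 0.00404 and sorted reads of 574, 1353, 0, 153, 66, 0, 33, 587, 61 and 166. Of its 10 sgRNAs 8 were thus detected, against 5 of 10 in OR51B5.

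The phylogenetic classes of OR genes gave similar values, whereas families and genomic clusters, most of them smaller groups, varied more. Class I genes (families 51, 52 and 56, the fish-like receptors, 56 genes) had 44.9% (40.7 to 49.2) of sgRNAs detected after the sort and a median ratio of -5.00 over the high-screen control. Class II genes (337) had 42.8% (41.1 to 44.6) and -5.06. The 16 OR genes with known odorants gave 43.6% (35.7 to 51.8) and -5.13. Of the larger families, family 10 (38 genes) had the highest median count in the high-screen control, 89 reads per sgRNA, and family 8 (23 genes) the lowest, 50. The 14 genomic clusters of at least 10 OR genes held 332 of the genes. The largest, at chr11:4388493-7963255, held 68. Detection after the sort was 30.2% (21.6 to 39.9) in the chromosome 3 group (12 genes), where median starting reads were 50, and 53.8% (44.4 to 63.0) in the chromosome 7 cluster from OR9A2 to OR2A1 (14 genes), where they were 97. These were the lowest and highest of the 14 clusters, picked for their values, so the gap between their intervals is not evidence of a difference. Their median ratios over the high-screen control were -5.73 and -3.11. Likewise 36.8% (32.3 to 41.6) of family 4 sgRNAs and 48.5% (43.3 to 53.7) of family 10 sgRNAs were detected, with median starting reads of 61 and 89. The part of starting reads in these differences was not tested.

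Taste, trace amine-associated and vomeronasal receptor genes were set beside the OR genes, as were keratin-associated and olfactory signalling genes. Their expression in K562 was not measured. The 24 bitter taste receptor (TAS2R) genes had 44.5% (37.9 to 51.2) of sgRNAs detected after the sort and 9.25% (5.82 to 13.8) below 10 reads in the high-screen control. The 6 trace amine-associated receptor (TAAR) genes had 52.5% (39.1 to 65.7) detected and 8.47% (2.81 to 18.7) below 10 reads. The 3 vomeronasal receptor (VN1R) genes had 53.6% (33.9 to 72.5) and 3.57% (0.09 to 18.4). The 92 keratin-associated protein (KRTAP) genes, another clustered family with close copies, had 51.5% (48.0 to 54.9) detected and 16.6% (14.1 to 19.3) below 10 reads. The 13 genes of olfactory signalling, among them GNAL (the olfactory G protein), ADCY3 (its adenylyl cyclase) and CNGA2 (the cyclic nucleotide-gated channel), had a median of 108.5 reads in the high-screen control and 50% (41.0 to 59.0) of sgRNAs detected. Their median ratio over the high-screen control was -4.62 (-6.16 to -2.56).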

How the data were processed

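The deposited files hold raw read counts per sgRNA, 1 file for each of 3 libraries. Per the study's methods, the authors trimmed the reads, mapped them with Bowtie2 to the sgRNA sequences, removed multi-aligning reads and counted the rest. The tools in the submitters' processing notes are Bowtie2, bcl2fastq and cutadapt, whose versions are not given in the sources used here. No genome build entered the counts. An sgRNA not listed in a file was given 0. Reads without a match (21.9% after the sort, 20.6% for the high-screen control, 12.1% for the low-screen control) were left out.

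Counts were scaled to matched reads. Log2 ratios used a pseudocount of 1 and sgRNAs with at least 10 reads in the control, or in either unsorted pool when these were compared. The RSA p of a gene was taken only over ranks whose ratio lay on the tested side of 0, a limit added after the data were seen, since otherwise genes with ratios below 0 were called enriched. The ranking script, though not the choice of this limit, was tested on simulated data. Adjusted p-values are Benjamini-Hochberg over all genes ranked.

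OR genes were matched to GENCODE release 44 lifted to GRCh37 by gene identifier (367) or symbol (25), and OR5R1 was unmatched. Proteins of at least 100 residues were compared with blastp 2.17.0. Exact copies of 20 bases followed by NGG were counted on both strands. Python 3.11.15, numpy 2.4.6, pandas 2.3.3, scipy 1.17.1 and biopython 1.88 were used.

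Genes were named if called by RSA, if among the 5 highest or lowest medians of a comparison, if they held 1 of the 10 sgRNAs with most sorted reads, if in the lists of MHC-linked, β-globin-flanking or non-nasal OR genes, or if an outlier with a relative at 90% identity. Highest and lowest medians were taken among genes with at least 5 sgRNAs past the read minimum. OR gene lists and members were chosen with earlier results of these data known. Alternatives covered the pseudocount, read minimum, scaling, OR membership, detection limit and RSA rule.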

Additional observations from a re-analysis of the deposited data

How the results depend on the processing

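Of 129 alternative values over 21 results, 91 stayed within the main interval or within 1.5 times the main count. Leaving out OR genes with a relative at 90% identity, MHC-linked OR genes or genes not annotated as protein coding moved no share or median difference beyond its interval. Scaling to safe-targeting reads gave OR shares above a log2 ratio of 1 of 13.2% (sorted over high-screen control), 14.8% (sorted over low-screen control) and 27.1% (pools), and shares below -1 of 72.8% (sorted over low-screen control) and 21.3% (pools). A minimum of 50 reads gave 71.1% below -1 in the sort over the high-screen control, and 19.8% above 1 and 25.2% below -1 between pools. No minimum gave 15.6% and 69.3% in the sort over the low-screen control, and 29.2% and 22.1% between pools. A pseudocount of 5 gave 20.98% below -1 between pools.

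The OR median minus the safe-targeting median, -0.32 in the sort over the high-screen control, became -1.71 with a minimum of 50 reads and 0 with no minimum, and between pools went from 0.16 to 0.0795 and 0.24. The OR minus non-targeting difference over the high-screen control, -2.80, became -1.07 with a pseudocount of 5, -3.75 with a minimum of 50 and -2.44 with none. Over the low-screen control it went from -2.96 to -1.33 with a pseudocount of 5, and between pools from -0.11 to -0.21 with a minimum of 50. Requiring 10 reads lowered OR detection to 35.1% after the sort, 86.1% for the high-screen control and 85.5% for the low-screen control.

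RSA calls were few and changed with the rule. The shares of all genes called under the alternative rules were not taken. The counts of OR genes below therefore cannot be set against a background. Enriched over the high-screen control, OR10AC1P was joined by OR6V1 without the most extreme sgRNA of each gene (2 genes), was joined by OR2T10 with ranks on either side of 0 (2, an alternative chosen after seeing the data), was replaced by OR6V1 with a minimum of 50 reads (1) and was lost with 4 sgRNAs required past a ratio of 1 (0). Depleted there, from 0, no minimum called OR13C8 (1), 4 sgRNAs past -1 called OR1D2 (1) and dropping the most extreme sgRNA called 4. Over the low-screen control enrichment gave OR11A1 with no minimum (1) and OR10K2 with 4 sgRNAs past 1 (1), and depletion gave 0 with a pseudocount of 5 and 4 without the most extreme sgRNA. Between pools enrichment gave OR52J3 with a minimum of 50 (1), 10 with no minimum and 6 without the most extreme sgRNA, and the first held none of OR2T34, OR2T4 and OR2W1, the second not OR2T4 and the third not OR2W1. Depletion between pools lost OR6N1 with a pseudocount of 5 and OR8S1 with a minimum of 50 (2 genes each). The causes were not tested. No paired analysis was possible because each group holds 1 library, and for the same reason no replicate could be left out.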
